A study of Mus musculus with 4 samples.

Results

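Amino acid transporters and asparagine synthetase were followed through 10 genes of mouse embryonic stem cells: Asns, Slc7a11, Slc7a5, Slc3a2, Slc7a1, Slc7a3, Slc1a4, Slc1a5, Slc38a2 and Slc6a9. A probe belonged to the group when its accession on the array is a RefSeq transcript of one of these genes, which gave 15 of the 41174 probes and 10 of the 17016 genes that the array names this way. Messenger RNA was measured on 1-colour Agilent arrays in 2 control samples and 2 FBL-knock down samples, 1 array each. All 4 samples came from Tc-inducible FBL-kd embryonic stem cells kept with leukaemia inhibitory factor (LIF) on gelatin. The controls grew with tetracycline (Tc) at 1000 ng/mL and the FBL-knock down samples without it, each for 2 days. The absence of Tc and the loss of FBL therefore cannot be told apart in this design. The labels do not say whether the line is 1 clone or whether the samples of a group were separate cultures, so the p-values below measure no more than how these 4 samples spread, and that spread may be technical. The FBL gene encodes fibrillarin, the methyltransferase that modifies ribosomal RNA in the nucleolus.

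Amino acids cross the plasma membrane through solute carriers, many of which exchange one amino acid for another or bring it in with sodium. Some carriers of the SLC7 family work only when joined to the heavy chain SLC3A2. Asparagine synthetase makes asparagine from aspartate, with glutamine as the nitrogen donor. When amino acids run short, cells phosphorylate the initiation factor eIF2alpha, which lowers general translation but raises translation of the transcription factor ATF4, and Asns and several of these carriers are known targets of ATF4. ATF4 binds with C/EBP family partners at composite sites.

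Fbl itself was lower in the samples labelled as knock-down. On a log2 scale with 0 at the 75th percentile of each array, its level was 8.63 and 8.12 in the controls against 5.98 and 5.94 after knock-down, a 5.32-fold fall with an adjusted p of 5.48e-04 by limma (log2 change −2.41 ± 0.25 SE; n = 2 in each group, here and throughout). The label of embryonic stem cells was checked on its markers. Of the 12 listed, 11 were on the array, and all 11 were well above background on all 4 arrays. Of these markers 1, Tfcp2l1, was called lower in the knock-down group (log2 change −0.95 ± 0.23 SE, limma adjusted p = 0.0422). Without a call, Nanog (log2 change −0.82), Zfp42 (−0.61), Tdgf1 (−0.44), Esrrb (−0.34), Dppa4 (−0.32) and Pou5f1 (−0.06) were lower. Sox2 (0.29), Dppa5a (0.24), Utf1 (0.08) and Klf4 (0.03) were higher. The groups overlapped for Pou5f1, Dppa5a and Utf1. Of 10 fibroblast markers 4 were well above background on all arrays and Col3a1, Dcn, Postn and Fap on none. Summed over the list, the log2 level of fibroblast markers was 2.78 and 2.15 in the controls against 1.77 and 1.89 in knock-down, and that of endoderm markers was −0.73 and −1.37 against −1.63 and −1.67. That of trophectoderm markers was 4.18 and 3.89 against 4.78 and 4.56. A sum follows its brightest markers, and single markers moved both ways: among fibroblast markers Thy1 had a log2 change of −0.75 and Col1a1 one of 0.47, with 0 of the list called. Outside the embryonic stem cell list, Sox7 of endoderm fell (−2.15, limma adjusted p = 5.48e-04) and Kdr of mesoderm rose (1.19, adjusted p = 0.0123). The other tested markers of these lists were not called and went both ways. In endoderm, Gata4 (−1.85), Foxa2 (−0.32) and Dab2 (−0.03) were lower, and Sox17 (0.80) and Gata6 (0.04) higher. In mesoderm, Evx1 (−0.61), Mesp1 (−0.60) and Tbx6 (−0.09) were lower. Gata4 and Evx1 were well above background on only 1 knock-down array, and Sox17 on only 1 control array. Elf5 of trophectoderm was lower (−1.63) but dim, well above background on 2 control arrays and 1 knock-down array. It entered the test only through the controls, so its p-value is not used. Of the other trophectoderm markers, Cdx2 (0.83), Tfap2c (0.82), Gata3 (0.77) and Hand1 (0.71) were higher. Eomes (−0.36) and Krt8 (−0.32) were lower, and none of these others was called. The part of these markers in the results below was not tested. In bulk RNA, fewer cells of a type and less RNA per cell cannot be told apart. Per array, 24491 to 26397 probes were well above background, and having only 4 arrays limits the precision. The difference between the controls had a standard deviation of 0.52 over the tested probes, and that between the knock-down samples 0.31. Controls 1 and 2 and knock-down 1 shared a slide, and knock-down 2 lay on another.

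Of the 10 genes, 9 had signal and 1, Slc7a11, did not. A probe was tested when both arrays of either group read it well above background. This held for 12 of the 15 probes. By limma, with Benjamini-Hochberg adjustment over all 25088 probes tested and a threshold of 0.05, 6 of the 12 probes fell and 0 rose. Across all probes tested 2.42% fell and 3.66% rose, 6.08% in all. At an unadjusted p under 0.05, 7 member probes were lower and 1 was higher, where 10.5% of all probes tested were lower and 9.44% higher. The 6 probes belong to 5 genes, Asns, Slc7a1, Slc1a4, Slc1a5 and Slc6a9, and their falls ran from 2.02-fold to 3.01-fold. The median log2 change of the 12 probes was −0.90, against −0.06 for all probes tested. Without knock-down 2, which is also the fit within slide 1, 1 member probe fell, without knock-down 1 it was 2, and without control 1 or control 2 it was 7 or 8. With no filter on dim probes, 0 of the members' and 0 of all probes passed by limma, with 7 member probes at an unadjusted p under 0.05. The fits without a knock-down array gave every probe the same variance, so a call there depends on the size of the change alone, and the median change of the 12 probes in them was −0.81 and −0.99.

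**Figure D1:**
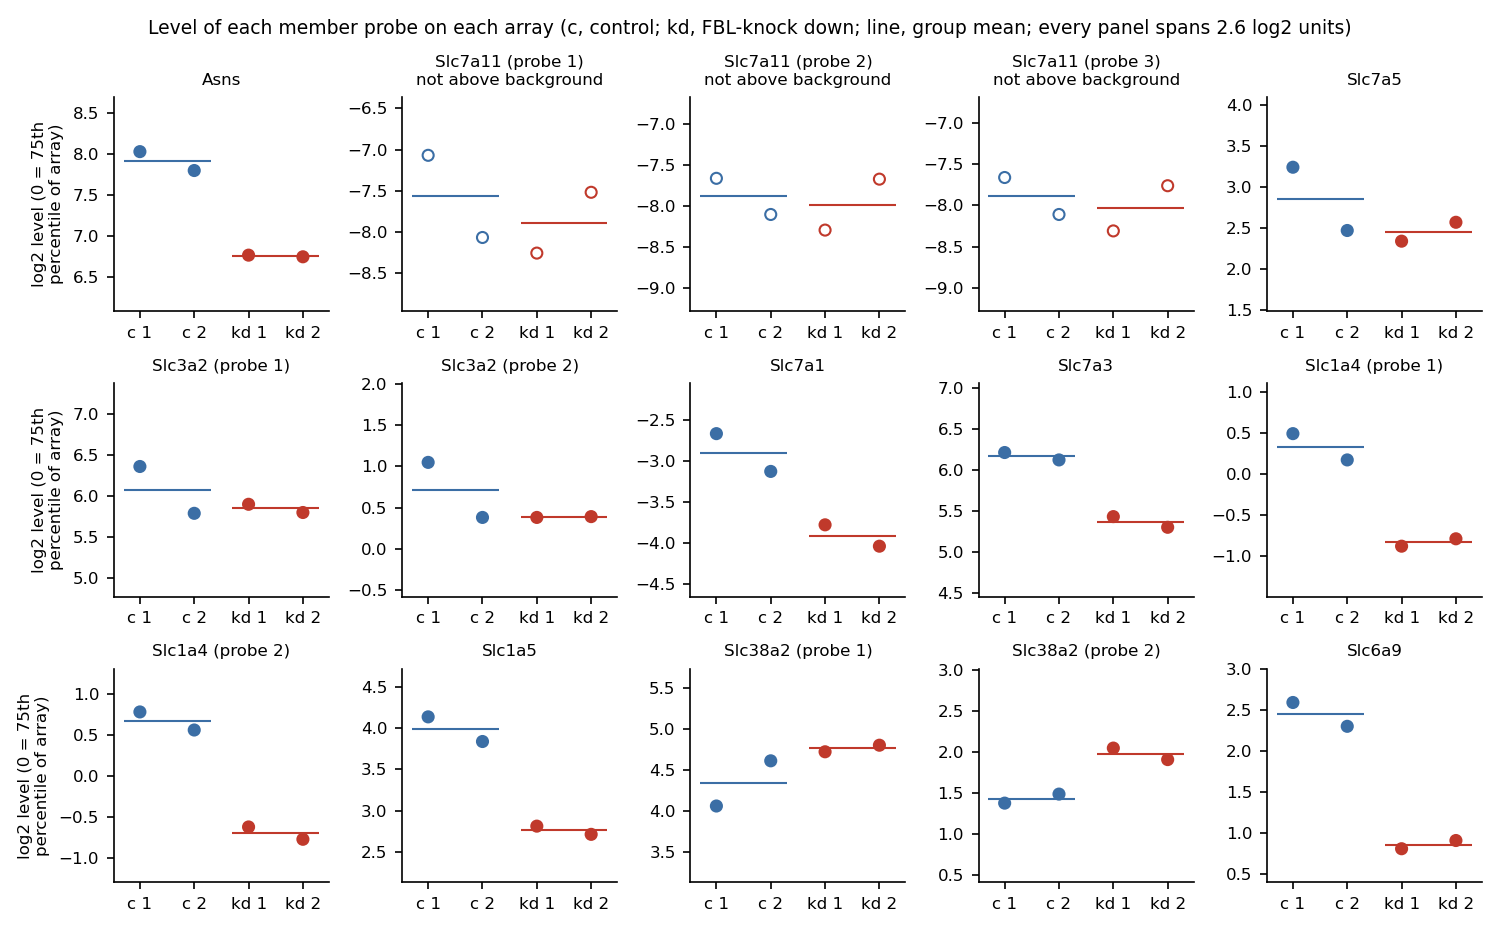
Log2 level of each of the 15 member probes on each array, relative to the 75th percentile of that array, with controls in blue, FBL-knock down samples in red and a line at each group mean. Both knock-down points lie below both control points for Asns, Slc7a1, Slc7a3, both probes of Slc1a4, Slc1a5 and Slc6a9, and above them for both probes of Slc38a2, while open points mark the 3 Slc7a11 probes that were not well above background.

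Both knock-down values lay below both control values for 7 of the 12 tested probes and above them for 2, while 3 overlapped. Over all probes tested, groups did not overlap downwards for 30.6% and upwards for 20.8%, 51.4% in all, so separation alone is common on these arrays. The 3 probes with overlap were those of Slc7a5 and Slc3a2, the pair that forms the exchanger of large neutral amino acids.

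Asns, the asparagine synthetase, was the only enzyme among the 10 genes and was read by 1 probe. Its log2 level was 8.03 and 7.80 on control arrays 1 and 2 and 6.77 and 6.75 on knock-down arrays 1 and 2. The groups lay 1.03 apart at their nearest values, while the knock-down arrays lay close together. The fall was 2.23-fold (log2 change −1.16 ± 0.23 SE, limma adjusted p = 0.0153), and 1.8% of all probes tested had a lower change. The change was −1.16 without knock-down 1 and −1.15 without knock-down 2, where the call ended (adjusted p = 0.185 and 0.258).

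The Asns promoter is shown because it holds the letters TGATGNAA, which occur in composite sites of ATF4 and its C/EBP partners. RefSeq promoter windows of build GRCm38.p6, from 250 bases before to 50 bases after a gene start, were searched for these letters on both strands. Of the 10 genes, 7 had a window, with 10 windows in all, and 1 window each of Asns, Slc7a11 and Slc1a4 held a match. Of all 32851 windows 3.97% held at least 1. The 250 bases before the Asns start (chr6:7693210-7693459, minus strand) are printed 5′ to 3′ along the gene, with the match in capitals. It begins 23 bases before the start.

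Asns promoter: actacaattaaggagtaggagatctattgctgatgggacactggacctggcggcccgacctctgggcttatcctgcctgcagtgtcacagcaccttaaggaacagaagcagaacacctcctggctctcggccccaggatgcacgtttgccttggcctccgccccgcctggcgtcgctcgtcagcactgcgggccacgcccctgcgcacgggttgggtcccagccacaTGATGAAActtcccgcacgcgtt

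Such a match is a description of the letters and not evidence that a factor was bound in these cells.

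The sodium-dependent exchangers of small neutral amino acids fell together. Slc1a5 encodes ASCT2, a main route of glutamine uptake. Its log2 level was 4.14 and 3.84 in the controls against 2.81 and 2.71 in knock-down, with no overlap. The fall was 2.34-fold (log2 change −1.23 ± 0.23 SE, limma adjusted p = 0.0127). Slc1a4 encodes ASCT1, the related exchanger of alanine, serine and cysteine, and was read by 2 probes. At probe 1 its log2 level was 0.49 and 0.17 in the controls against −0.88 and −0.79 in knock-down. At probe 2 it was 0.78 and 0.56 against −0.62 and −0.77. At each probe the 2 groups lay apart, with changes of −1.17 ± 0.23 (adjusted p = 0.0166) and −1.36 ± 0.23 (adjusted p = 0.00685), or 2.24-fold and 2.57-fold. The probes therefore differed in change by 0.20, less than the standard error of either. Without knock-down 2 the 3 calls of these genes ended (adjusted p = 0.222 for Slc1a5, 0.194 and 0.132 for Slc1a4 probes 1 and 2), and without knock-down 1 those of Slc1a5 (0.108) and Slc1a4 probe 1 (0.222) did, with changes from −1.12 to −1.29.

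The Slc1a4 promoter is shown because its match, on the opposite strand, lies across the start itself: it begins 4 bases before the start and ends 4 bases after it. The 254 bases up to its end (chr11:20332710-20332963, minus strand, GRCm38.p6) are printed 5′ to 3′, with the match in capitals.

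Slc1a4 promoter: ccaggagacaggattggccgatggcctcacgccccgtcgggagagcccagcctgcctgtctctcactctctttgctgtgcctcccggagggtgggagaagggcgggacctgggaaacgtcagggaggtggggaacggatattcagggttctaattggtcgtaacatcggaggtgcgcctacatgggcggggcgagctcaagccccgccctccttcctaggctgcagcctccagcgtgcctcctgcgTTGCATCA

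Slc6a9 had the largest change of the 12 tested probes. It encodes GLYT1, which carries glycine into the cell with sodium and chloride. Its log2 level was 2.59 and 2.30 on control arrays 1 and 2 and 0.81 and 0.91 on knock-down arrays 1 and 2. The groups lay 1.39 apart at their nearest values. The fall was 3.01-fold (log2 change −1.59 ± 0.23 SE, limma adjusted p = 0.00327), and 0.8% of all probes tested had a lower change. It passed without any 1 of the 4 arrays. RefSeq gave 3 windows for Slc6a9, and none held TGATGNAA.

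The carriers of cationic amino acids, which bring in arginine and lysine, were lower too, and 1 of the 2 passed the test. Slc7a1, which encodes CAT1, was dim, with a processed signal of 87.6 and 91.4 in the controls against 45.9 and 30.4 in knock-down, well above background on all 4 arrays. Its log2 level was −2.67 and −3.13 in the controls against −3.78 and −4.04 in knock-down, and the groups did not overlap. The fall was 2.02-fold (log2 change −1.01 ± 0.25 SE, limma adjusted p = 0.0439). The call ended under normexp background correction, where the change was −0.31 (adjusted p = 0.599), with quantile normalization (0.0605), with the 75th percentile over bright probes (0.0533), without knock-down 1 (−1.14, 0.206) and without knock-down 2 (−0.88, 0.675). Slc7a3, which encodes CAT3, had log2 levels of 6.21 and 6.12 in the controls against 5.43 and 5.30 in knock-down. These 2 groups did not overlap either, and the log2 change was −0.80 ± 0.22 SE (limma adjusted p = 0.0693), which did not pass. It passed under normexp (adjusted p = 0.0201), among probes well above background on all arrays (0.0414), without control 1 (0.0348), without control 2 (0.0356) and in the fit with a trended, robust prior (0.00972). With a control left out, the spread comes only from both knock-down arrays.

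The exchanger of large neutral amino acids did not pass the test at either of its chains. Slc7a5 encodes LAT1, the light chain that exchanges glutamine for leucine and other essential amino acids. Its log2 level was 3.24 and 2.47 on control arrays 1 and 2 and 2.34 and 2.57 on knock-down arrays 1 and 2. Control 1 was higher than the other 3 arrays, which lay close together. The log2 change was −0.40 ± 0.28 SE (limma adjusted p = 0.490), with a 95% interval from −1.04 to 0.24, and it was −0.02 without control 1 and −0.78 without control 2. Slc3a2 encodes the heavy chain 4F2hc, shared by LAT1 and by the cystine exchanger. At probe 1 its log2 level was 6.36 and 5.79 in the controls against 5.90 and 5.80 in knock-down, and at probe 2 it was 1.05 and 0.38 against 0.38 and 0.39. At each probe control 1 was again the array that stood higher. The changes were −0.23 ± 0.26 (adjusted p = 0.687, 95% interval −0.80 to 0.34) and −0.33 ± 0.27 (adjusted p = 0.560, interval −0.92 to 0.27). Without control 1 they were 0.06 and 0.01, and without control 2 they were −0.52 and −0.66, of which the second passed (adjusted p = 0.0456).

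Slc38a2 was the only gene of the 9 with signal whose mean was higher in knock-down. It encodes SNAT2, the sodium-coupled carrier of alanine, glutamine and other small neutral amino acids known as system A. At probe 1 its log2 level was 4.06 and 4.61 in the controls against 4.72 and 4.80 in knock-down. At probe 2 it was 1.38 and 1.49 against 2.05 and 1.91. The groups did not overlap at either probe, but at probe 1 control 1 stood apart from the other 3 arrays. The changes were 0.42 ± 0.25 SE (limma adjusted p = 0.401, 95% interval −0.14 to 0.99) and 0.54 ± 0.22 (adjusted p = 0.211, interval 0.04 to 1.04). At probe 1 the change was 0.15 without control 1 and 0.70 without control 2, where it passed (adjusted p = 0.0444). Set beside each other, the glutamine carriers Slc1a5 and Slc38a2 had changes of opposite sign, −1.23 against 0.42 and 0.54. That difference was not tested.

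Slc7a11 encodes xCT, the light chain that brings in cystine in exchange for glutamate. None of its 3 probes was well above background on any array, and their processed signals ran from 1.99 to 4.17, where the 75th percentile of the array was 504.7 to 797.7. At probe 1 the log2 level was −7.07 and −8.07 in the controls against −8.26 and −7.52 in knock-down, at probe 2 it was −7.66 and −8.10 against −8.29 and −7.67, and at probe 3 it was −7.66 and −8.11 against −8.31 and −7.76. The groups overlapped at all 3 probes, and no fold is given because neither group was well above background. Its promoter is shown because it held 2 matches to TGATGNAA, which 0.07% of all windows did. One lies on the gene's strand, beginning 66 bases before the start, and the other on the opposite strand, beginning 47 bases before it. The 250 bases before the start (chr3:50443614-50443863, minus strand, GRCm38.p6) are printed 5′ to 3′ with both matches in capitals.

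Slc7a11 promoter: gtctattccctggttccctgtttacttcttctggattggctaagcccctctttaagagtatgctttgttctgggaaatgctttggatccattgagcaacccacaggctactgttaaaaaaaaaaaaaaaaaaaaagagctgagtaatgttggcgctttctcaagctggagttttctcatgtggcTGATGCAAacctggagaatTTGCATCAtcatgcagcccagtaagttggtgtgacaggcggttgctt

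Of the 3 genes with a match, Asns and Slc1a4 thus fell and Slc7a11 was not well above background. Of the 4 with a window and no match, Slc7a1 and Slc6a9 fell and Slc3a2 and Slc38a2 did not pass the test.

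**Figure D2:**
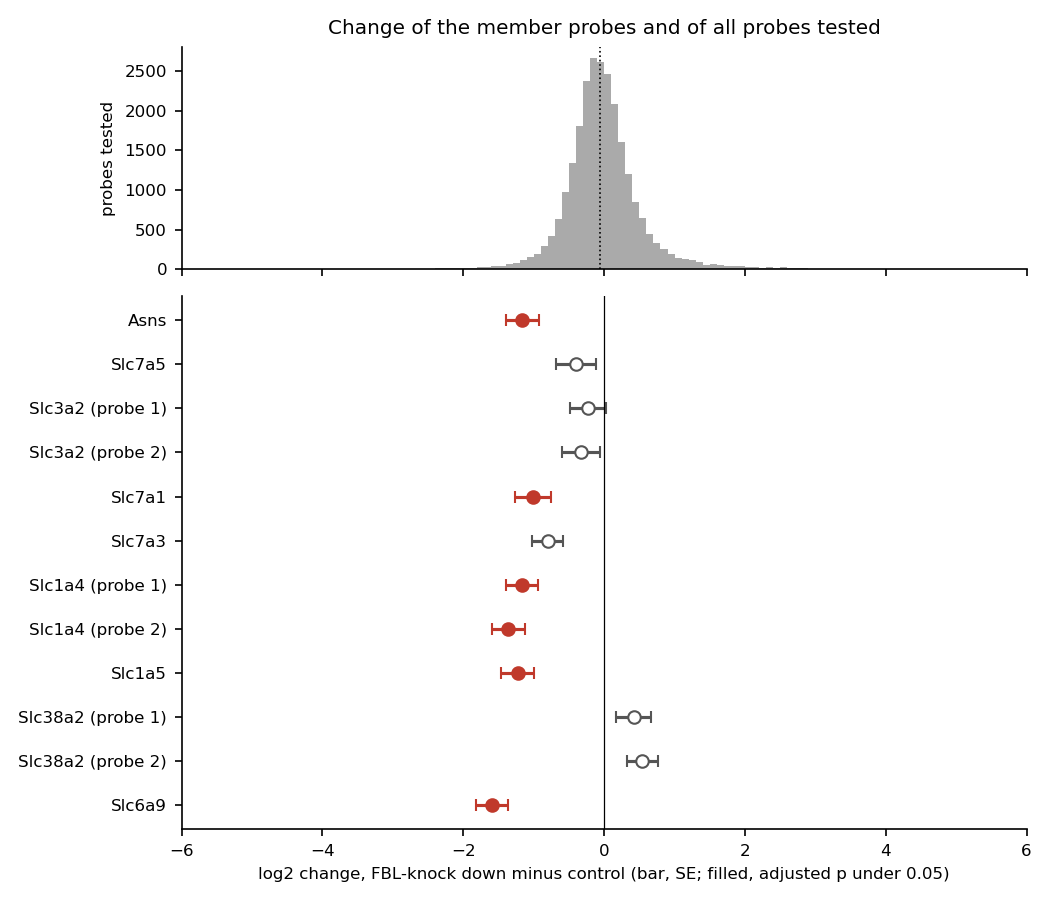
Top, the log2 change of all 25088 probes tested, with their median of −0.06 dotted; bottom, the change of each of the 12 tested member probes with its standard error, filled where the limma adjusted p was under 0.05. The 6 filled probes lie between −1.59 and −1.01, in the lower tail of the distribution, and both Slc38a2 probes lie above 0.

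The profile of Asns over the 4 arrays was compared with that of other genes by the root mean square difference between centred log2 levels, among 17176 probes of 12194 genes that were well above background on all arrays. The closest were 1700024G13Rik (0.0225), Otub2, a deubiquitinase (0.0389), Ifitm5, an interferon-induced transmembrane protein of bone (0.0425), H2bc4, a histone H2B gene with near-identical copies whose signal is uncertain (0.0466), and Dclk2, a doublecortin-like kinase (0.0501). Among the members, Slc1a4 probe 1 (0.0484) and Slc1a5 (0.0516) were about as close, Slc7a1 (0.138) and Slc7a3 (0.189) were further off, and Slc38a2 was the furthest (0.837 and 0.859). With 4 arrays in 2 groups, such closeness says only that the change and the gaps within groups were alike.

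**Figure D3:**
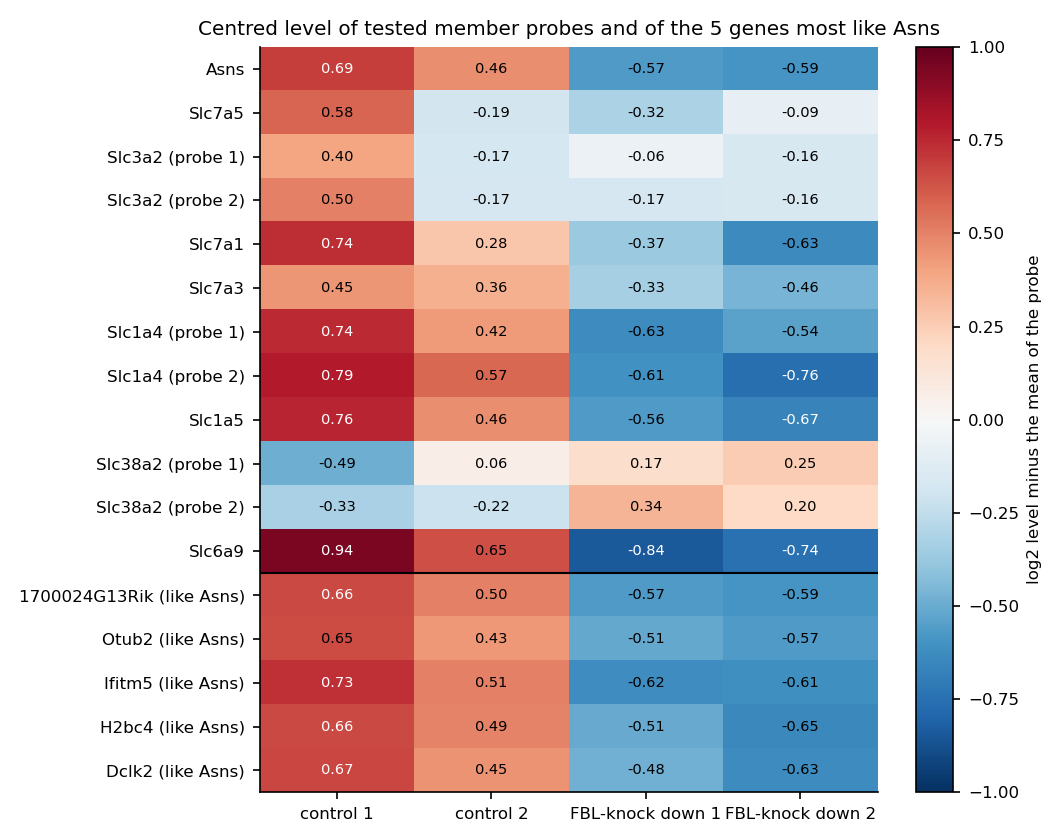
Log2 level of each tested member probe on each array minus the mean of that probe, with the 5 genes most like Asns under the line; red is above and blue below the mean of the probe. Asns, Slc1a4, Slc1a5, Slc6a9, Slc7a1 and Slc7a3 are high on both controls and low on both knock-down arrays, whereas Slc7a5 and Slc3a2 stand out on control 1 and Slc38a2 runs the other way.

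Other carriers of amino acids moved both ways. Genes are counted here by their brightest tested probe. Counts in the lists cover genes well above background on all 4 arrays, because a gene bright in only 1 group enters the test through that group. Accessions without a symbol counted as genes of their own in the total of 19343, of which 12810 had a symbol, 2.52% fell and 3.84% rose. Of those with a symbol and well above background on all arrays, 12200 genes, 1.78% fell and 3.72% rose, with a median log2 change of −0.05. Of 44 other amino acid transporters 23 were so measured, of which 1 fell and 2 rose, with a median of −0.08. Slc38a5 (SNAT5), a carrier of glutamine and glycine, fell (log2 change −1.03 ± 0.25 SE, limma adjusted p = 0.0396). Slc6a14, which carries neutral and cationic amino acids, was at least 1.67-fold lower in knock-down, where it was not well above background. Slc7a10 (asc-1), an exchanger of small neutral amino acids, was at least 1.73-fold higher than in the controls, where it was not well above background. Both entered the test only through their brighter group, so their p-values are not used. For such bounds the dim group's signal was raised, where it was lower, to the lowest that any probe well above background had on that array. Slc7a4 (1.15 ± 0.23, adjusted p = 0.0186) and Slc43a1 (1.01 ± 0.24, adjusted p = 0.0399), which encodes the leucine carrier LAT3, rose. With quantile normalization the calls of Slc38a5 (adjusted p = 0.0588) and Slc43a1 (0.0502) ended. Without knock-down 1 those of Slc7a4 (0.117), Slc38a5 (0.437) and Slc43a1 (0.313) ended, as they did without knock-down 2 (0.406, 0.299 and 0.484). Under normexp the log2 changes of Slc6a14 and Slc7a10 were −0.18 and 0.54, smaller than these bounds, which hold for the deposited values only.

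Of 41 enzymes of amino acid metabolism outside serine synthesis 34 were tested, all well above background on all arrays, of which 4 fell and 0 rose by limma. At an unadjusted p under 0.05, 7 were lower and 3 higher, or 20.6% and 8.82%, against 9.89% and 10.2% of the tested genes with a symbol. Gpt2, the mitochondrial alanine transaminase, had log2 levels of 2.88 and 2.92 in the controls against 0.87 and 0.82 in knock-down and fell 4.14-fold (adjusted p = 6.94e-04). Aldh18a1, which starts proline synthesis from glutamate, fell 3.67-fold (adjusted p = 0.00159), Cth, which makes cysteine from cystathionine, 2.73-fold (0.00440) and Bcat1, the cytosolic branched-chain transaminase, 2.05-fold (0.0284). The list's median was −0.09. Without knock-down 2 the calls of Cth (adjusted p = 0.0866) and Bcat1 (0.385) ended, as did that of Bcat1 without knock-down 1 (0.331).

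ATF4 and its regulators held 19 tested genes, all well above background on all arrays, with a median of −0.30. By limma 4 fell, or 21.1%, and 0 rose. Among all genes with a symbol and so measured, 1.78% fell and 3.72% rose. At an unadjusted p under 0.05, 7 were lower, or 36.8%, and 0 higher. Among all tested genes with a symbol, 9.89% were lower and 10.2% higher. Atf4 had log2 levels of 4.14 and 3.79 in the controls against 2.36 and 2.45 in knock-down, a 2.95-fold fall (log2 change −1.56 ± 0.23 SE, limma adjusted p = 0.00382). Its targets Nupr1 (−4.29, adjusted p = 4.75e-05), a stress-induced chromatin protein, and Chac1 (−3.40, adjusted p = 2.01e-04), which degrades glutathione, fell, and so did Ppp1r15b (−1.28, adjusted p = 0.0105), the constitutive regulator of eIF2alpha dephosphorylation, whose call ended without knock-down 1 (0.110) and without knock-down 2 (0.132). Of the 19 genes of the ATF4 list, 14 had a change below 0 and 5 above it. Of all 19343 genes, 10799 were below 0 and 8544 above it. Ddit3 (0.46) and Sesn2 (0.57) were higher, and Atf5 (−0.92), Trib3 (−0.80) and Atf3 (−0.66) lower, without passing the test. Atf5 came closest to passing (limma adjusted p = 0.0547). Among 31 genes of amino acid sensing by mTORC1 well above background on all arrays, 1 fell and 1 rose, with a median of −0.10. Each is 3.23%, against 1.78% falling and 3.72% rising among all genes with a symbol and so measured. Counts of 1 say little about the list. Rragd, a Rag GTPase, fell (−0.97, adjusted p = 0.0319), and Ddit4, an inhibitor of mTORC1, rose (1.67, adjusted p = 0.00393). The call of Rragd ended without knock-down 1 (0.330) and without knock-down 2 (0.612). Castor2, a homologue of the arginine sensor CASTOR1, was at least 1.61-fold lower in knock-down, where it was not well above background. It entered the test only through the controls. Under normexp its log2 change was −0.14, smaller than this bound, which holds for the deposited values only.

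**Figure D4:**
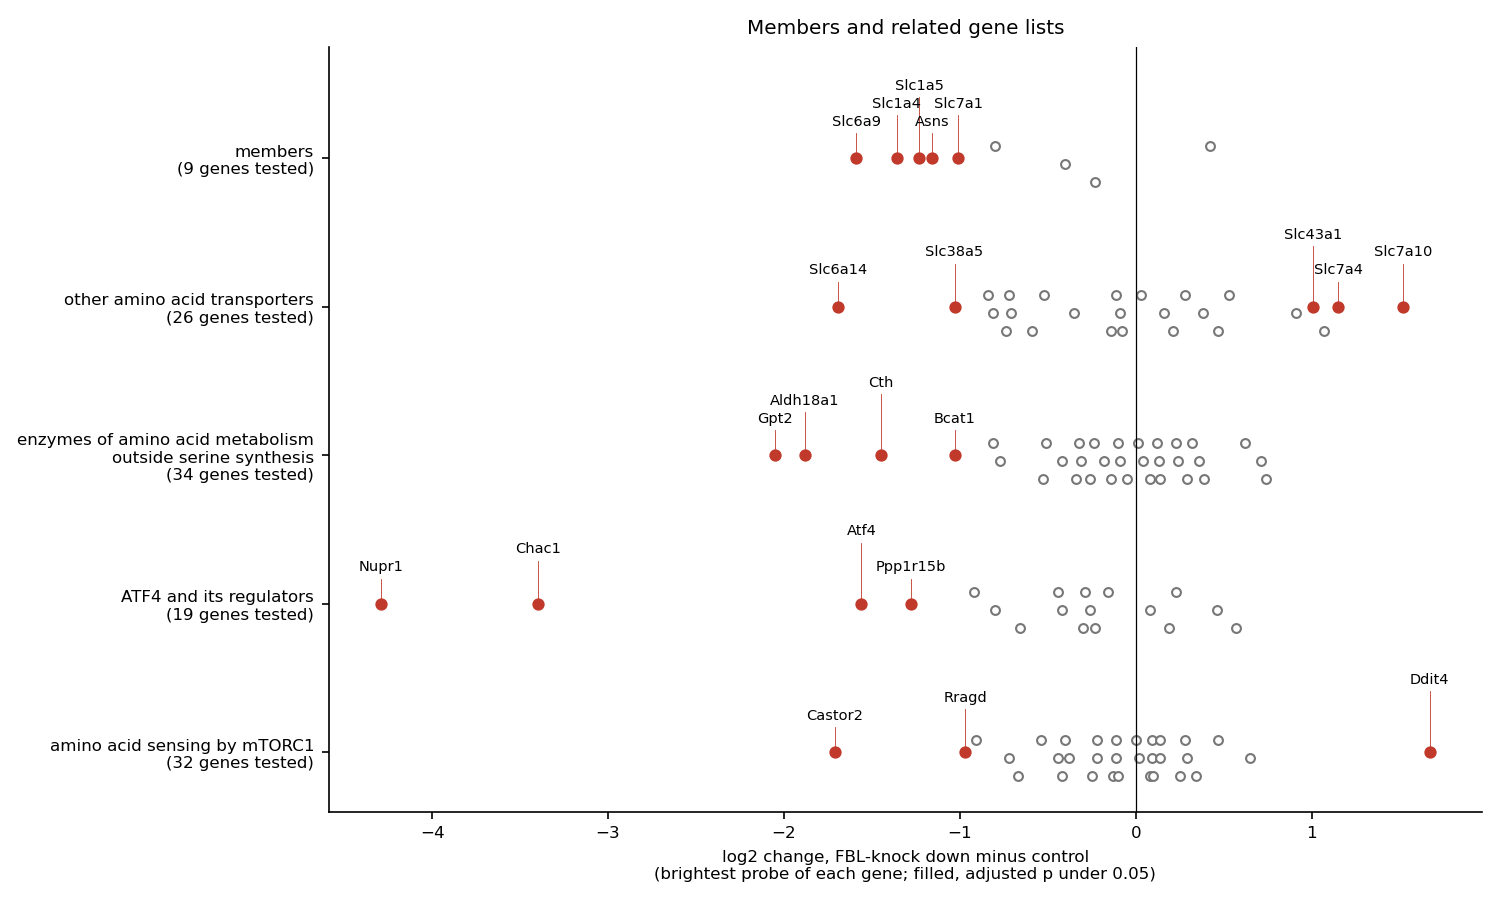
Log2 change of each tested gene at its brightest probe, for the members and the 4 related lists, filled and named where the limma adjusted p was under 0.05. In the members' row 5 of 9 genes are filled, all below 0, while the other transporters hold 2 filled genes below 0 and 3 above it, of which Slc6a14 and Slc7a10 were well above background in 1 group only, as was Castor2 among the genes of amino acid sensing.

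**Figure D5:**
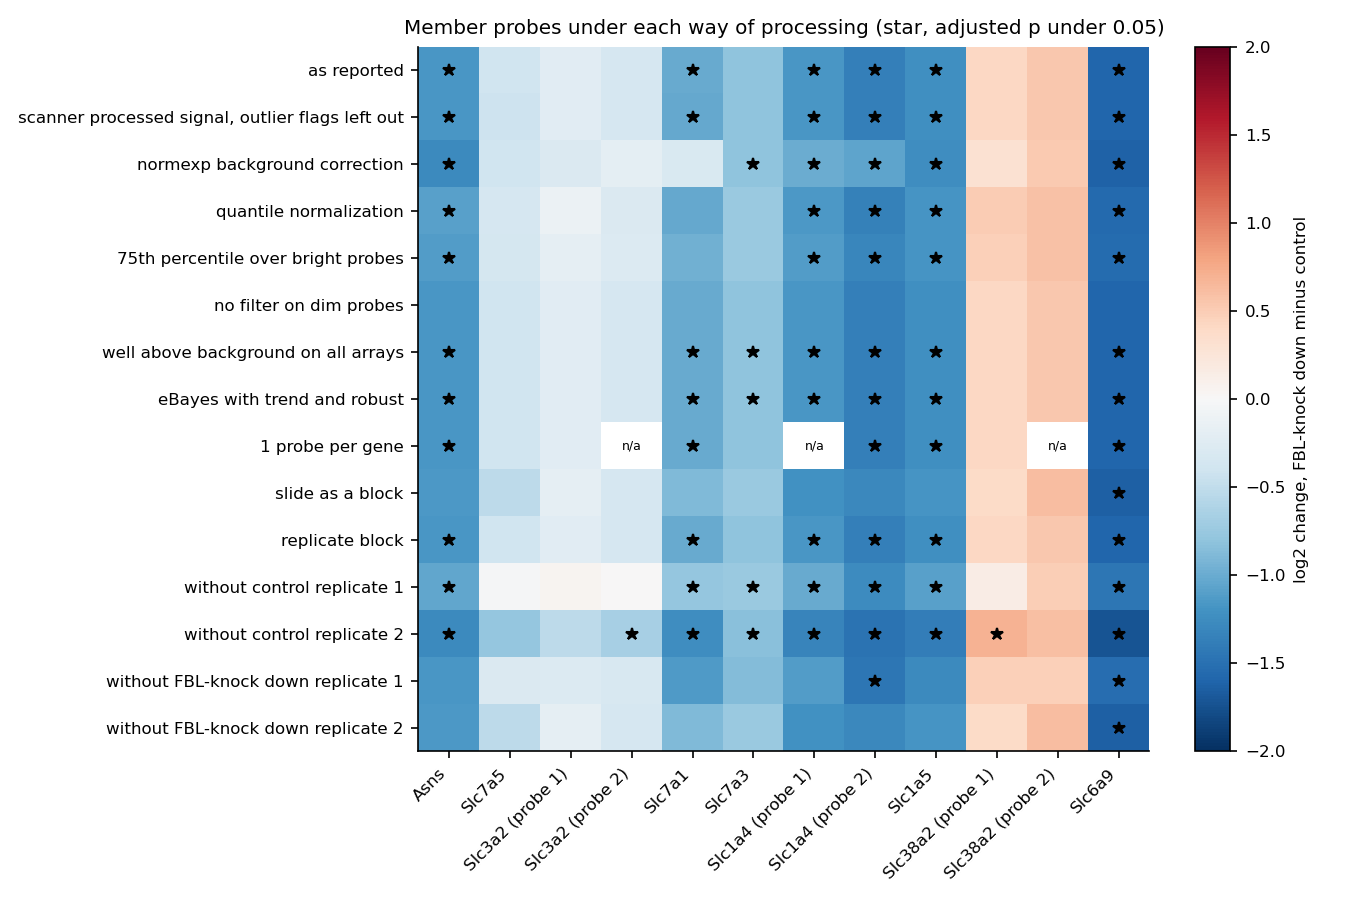
Log2 change of the 12 tested member probes (columns) as reported and under 14 other ways of processing (rows), with a star where the adjusted p was under 0.05; n/a marks the 3 probes left out where each gene has 1 probe. Slc6a9 carries a star in every row except the one with no filter on dim probes, which has none, and the columns of Slc3a2 turn from below to above 0 without control replicate 1.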

How the data were processed

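Per the file headers, Agilent Feature Extraction 10.7.3.1 made the scanner tables of the 4 arrays. The deposited intensity of a spot had its background subtracted and a spatial trend removed, with no scaling across arrays. Values in the deposited series table are on the log2 scale: they equal the log2 processed signal less a constant of the array, to 0.01, for 99.88% to 99.92% of probes. Medians of its columns were −3.85 and −3.98 (controls) and −3.94 and −3.91 (knock-down), with the 75th percentile at 0. Probes were not centred, and a higher value means a brighter probe. The sources used here do not name the software behind the table.

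Members were read from this table by probe. Accessions without version were matched to RefSeq transcripts of GRCm38.p6, which named 24375 probes with 1 gene and left 16799 unnamed. The array design refers to another build, so no probe coordinates are given. Probe sequences were not analysed here. Groups were compared with limma 3.58.1 in R 4.3.3 (lmFit, eBayes with the default prior, two-sided) over 25088 probes. The fit was tested on simulated data of the same size, where it called 80 of 100 probes changed by 2 on the log2 scale and 3 of 100 changed by 1. It also called 5 unchanged probes. No other probes were changed in the simulation, whereas 1525 were called in the real data. With fewer changed probes the adjustment is stricter, so these shares do not give the recovery in the real data. The smallest called change in the real data was 0.86. The alternatives were the scanner signal without outlier flags, normexp (offset 50, on the median signals, since no mean signal column was at hand), quantile and bright-probe scaling, other filters, trend and robust, 1 probe per gene, the slide or replicate number as a block, and leaving out each array. The members, lists and rules were chosen with earlier results of these data known. Named beside the members are Fbl, Atf4, up to 6 called genes per direction of each list, and the 5 genes most like Asns. Ddit3, Sesn2, Atf5, Trib3 and Atf3 are named too, as genes of the ATF4 list that were not called.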

Additional observations from a re-analysis of the deposited data

How the results depend on the processing

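Over all probes tested, 917 rose and 608 fell. With trend and robust these counts were 1450 and 1178, with the slide as a block 450 and 230, with no filter on dim probes 0 and 0 (3857 at an unadjusted p under 0.05), with the replicate block 1242 and 996, and with quantile normalization 399 fell. Leaving out 1 array at a time gave 450 to 2974 rising and 230 to 2347 falling probes. Of the members' probes, 6 fell and 0 rose. With the slide as a block 1 fell, with no filter 0 fell (limma; 7 of 15 at an unadjusted p under 0.05), and leaving out 1 array gave 1 to 8 falling and 0 to 1 rising. With no filter Fbl had a change of −2.41 and an adjusted p of 0.105, and it passed in the 13 other alternatives. The median change of the members' probes lay between −0.60, under normexp, and −1.04. No sign was seen that the replicate numbers of the titles paired the arrays. The difference between replicates 1 and 2 correlated at 0.02 between groups, and the replicate block changed no call of a member. With knock-down 2 alone on its slide, these values cannot show whether samples were paired by culture. Without control replicate 1 the changes of Slc3a2 turned to 0.06 and 0.01, and without control replicate 2 they were −0.52 and −0.66. The fits with normexp, the slide or replicate block, or without a knock-down array had an infinite prior, so every probe had 1 variance there. Where 1 array is left alone in a group, it is assumed to vary like the other group. Normexp on the median signals replaced the planned mean signals after the files were seen. No group had enough samples for a test of outlying arrays.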
